A study of Mus musculus with 58 samples.

Results

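The layer transcription factors of the cerebral cortex analysed here were *Cux1*, *Cux2*, *Rorb*, *Etv1*, *Fezf2*, *Bcl11b*, *Tbr1*, *Foxp2* and *Tle4*, which were looked up by symbol in the tables of 2 regions, the entorhinal cortex (EC) and the visual area PVC (primary visual cortex). All 9 were found in both tables, among 31246 genes in all. The tissue came from male C57Bl/6 mice aged 14 to 15 months in which human *APOE* replaces the mouse gene and is driven by the mouse promoter, so both genotypes and both regions share this replacement. Each region was represented by 29 libraries, 10 from *APOE3/3* and 19 from *APOE3/4* mice, and the same 29 animal numbers, each with 1 genotype, occur in both regions. For each gene and region the data gave the authors' mean normalized count, a mean over all 29 libraries of read counts corrected for library depth. Values of single mice were not analysed here, so the means below carry no error, no comparison could be tested, and levels are those of both genotypes together in a fixed mix of 10 to 19.

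The neocortex is built of layers of excitatory neurons that differ in when they are born and where their axons go, and a small set of transcription factors fixes and marks these fates. Neurons of the upper layers connect cortical areas, layer 4 of a sensory area receives input from the thalamus, layer 5 projects to subcortical targets and layer 6 projects back to the thalamus. The PVC is a sensory area with a thick layer 4, whereas the EC is a transition to the hippocampal formation in which a cell-poor lamina takes the place of a granular layer 4. The comparison of the regions therefore asks how the RNA of each layer's factors differs between a sensory neocortex and the EC of the same mice.

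All 9 genes were expressed in both regions. In the EC their mean normalized counts exceeded those of 63.2% (*Foxp2*) to 94.0% (*Bcl11b*) of the listed genes, and in the PVC those of 71.3% (*Foxp2*) to 96.3% (*Cux2*). To compare genes with each other, the mean normalized count was divided by the length of the union of a gene's exons. In the EC, *Etv1* was highest, with 1012 mean normalized counts per kilobase. It was followed by *Tbr1* with 849.5, *Tle4* with 765, *Bcl11b* with 763, *Cux2* with 625, *Fezf2* with 577 and *Cux1* with 393 counts per kilobase. *Rorb*, with 132 counts per kilobase, and *Foxp2*, with 20.4, stood well below the others. In the PVC the order began with *Tbr1* at 705 and *Cux2* at 631 counts per kilobase. *Fezf2* with 435, *Tle4* with 373, *Etv1* with 345 and *Cux1* with 325 counts per kilobase came next. *Bcl11b*, at 219 counts per kilobase, was seventh in the PVC, above *Rorb* at 165 and *Foxp2* at 30.0. *Rorb* and *Foxp2* kept the last places in both regions and the other 7 genes changed places. Whether neighbours in these orders differ beyond the spread between mice was not tested, and with the longest transcript in place of the union of exons only 5 of the 9 genes kept their place in the PVC. *Tle4* and *Bcl11b* in the EC differed by less than 2 counts per kilobase.

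**Figure D1:**
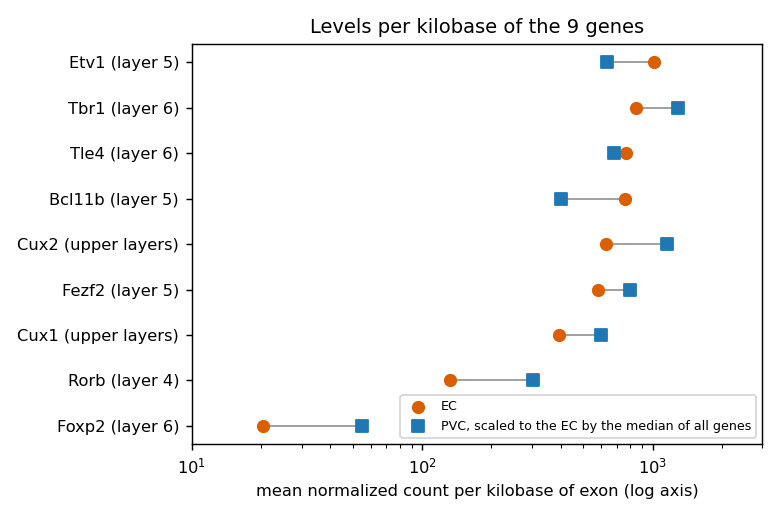
Mean normalized count per kilobase of exon (log axis) of the 9 genes, with the EC as circles and the PVC as squares (multiplied by the median EC over PVC ratio of all genes, 1.83). The squares lie right of the circles for *Foxp2*, *Rorb*, *Cux1*, *Fezf2*, *Cux2* and *Tbr1*, and left of them for *Bcl11b*, *Tle4* and *Etv1*.

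Summed over the 9 genes, the levels per kilobase were divided differently among the layers. The layer 5 factors *Etv1*, *Fezf2* and *Bcl11b* made up 45.8% of the sum in the EC against 30.9% in the PVC. This difference was not shared by all of them. *Etv1* took 19.7% in the EC against 10.7% in the PVC and *Bcl11b* 14.9% against 6.77%, but *Fezf2* took 11.2% against 13.5%. The upper layer factors *Cux1* and *Cux2* made up 19.8% in the EC against 29.6% in the PVC, and *Rorb* 2.56% and 5.12%. The layer 6 factors *Tbr1*, *Foxp2* and *Tle4* together took 31.8% and 34.3%, with *Tbr1* at 16.5% and 21.8%, *Tle4* at 14.9% and 11.5% and *Foxp2* at 0.397% and 0.929%. These shares are formed within a region, so they do not depend on how the 2 regions are scaled to each other.

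To set a gene's level in one region against the other, a common scale was needed, because the authors normalized each region on its own. The median gene among those whose mean normalized count reached 100 in both regions was 1.83-fold higher in the EC as deposited, and every log2 ratio of PVC over EC below is centred on that median, with a pseudocount of 1. Of the 12097 genes that met this minimum, 4.3% were at least 1.5-fold higher in the PVC after centring and 4.03% at least 1.5-fold higher in the EC. Of the 9 layer factors, 5 were at least 1.5-fold higher in the PVC (*Foxp2*, *Rorb*, *Cux2*, *Tbr1* and *Cux1*) and 2 in the EC (*Bcl11b* and *Etv1*), while *Fezf2* and *Tle4* stayed within 1.5-fold. With the regions scaled on neuronal genes, 3 were higher in the PVC, without *Cux1* and *Tbr1*, and 2 in the EC. With no common scale these counts were 0 and 3, the ratios of *Cux1* and *Tbr1* then being −0.28 and −0.27. On that scale the median gene was itself past the limit toward the EC, at 1.83-fold. The share of all genes past 1.5-fold was computed for the centred scale only, so these other counts have no background beside them. The median centred log2 ratio of the 9 genes was 0.60, where that of all 12097 genes is 0 and 91.7% of them lay within 1.5-fold. *Cux1* and *Tbr1* were just past the limit of 1.5, at 1.51 and 1.52-fold, and *Fezf2* just inside it at 1.38-fold. These are folds between 2 pooled means, with no replicate check. In bulk tissue, fewer cells of a type and less RNA per cell cannot be told apart.

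**Figure D2:**
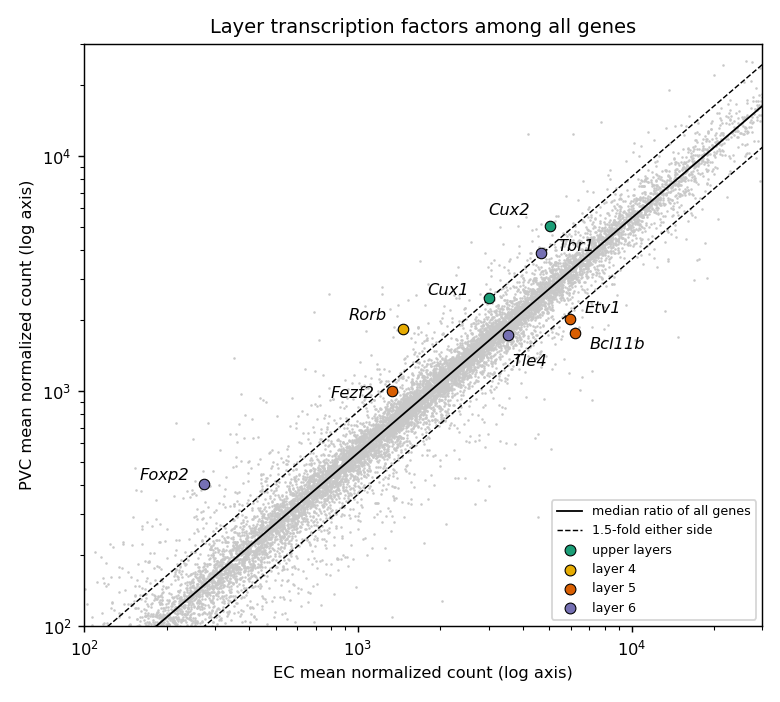
PVC against EC mean normalized count (log axes) of the genes with at least 100 in both regions (grey; genes beyond the axes are not shown) and of the 9 layer factors (coloured by layer). *Foxp2*, *Rorb* and *Cux2* lie above the upper dashed line of 1.5-fold, *Cux1* and *Tbr1* on it, and *Bcl11b* and *Etv1* below the lower one.

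*Cux1* and *Cux2* are homeodomain proteins with CUT repeats that mark neurons of layers 2 to 4, where they govern dendrite and synapse formation. *Cux1* (chromosome 5 of NCBIM37, 136724005 to 137043301, minus strand) had a mean normalized count of 3002 in the EC against 2478 in the PVC, a centred log2 ratio of 0.60. *Cux2* (chromosome 5, 122308396 to 122500111, minus strand) had a mean normalized count of 5006 in the EC against 5058 in the PVC, a centred log2 ratio of 0.89. The pair thus shared its direction, and 98.0% of the genes compared had a lower ratio than *Cux2*. *Cux1* also encodes CASP, a Golgi protein made from some of the same exons, and counts per gene do not separate them. The long noncoding gene *Gm16599* on the opposite strand overlaps 5.16% of the *Cux1* exon bases, and its own mean normalized count was 2.53 in the EC against 1.33 in the PVC. An annotated pseudogene also named *Cux2* overlaps 5.17% of the *Cux2* exon bases. The libraries did not keep strand, so reads in these overlaps cannot be assigned, and the other 7 genes share no exon bases with another gene.

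*Rorb*, an orphan nuclear receptor, is the usual marker of layer 4 and takes part in the grouping of its neurons around thalamic axons in sensory areas. *Rorb* (chromosome 19, 19005095 to 19185686, minus strand) had a mean normalized count of 1458 in the EC against 1832 in the PVC. The centred log2 ratio was 1.20, 2.30-fold higher in the PVC, above that of 99.0% of the genes compared. Only *Foxp2* had a higher ratio among the 9 genes.

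The 3 layer 5 factors did not share a direction. *Fezf2*, a zinc finger protein that selects the fate of neurons projecting out of the cortex, lies on chromosome 14 (13174406 to 13178379, minus strand). Its mean normalized count was 1330.0 in the EC against 1003 in the PVC, a centred log2 ratio of 0.47. *Bcl11b*, also known as Ctip2, is a zinc finger protein that acts downstream of *Fezf2* in the outgrowth of layer 5 axons and is also made by granule and pyramidal neurons of the hippocampus and by striatal projection neurons. *Bcl11b* (chromosome 12, 109148613 to 109241812, minus strand) had a mean normalized count of 6191 in the EC against 1772 in the PVC, which made it 1.90-fold higher in the EC (centred log2 ratio −0.93), with 1.53% of the genes compared below it. *Etv1*, an ETS family protein known as Er81, marks a group of layer 5 neurons and some interneurons. *Etv1* (chromosome 12, 39505967 to 39594802, plus strand) had a mean normalized count of 5959 in the EC against 2031 in the PVC and was 1.60-fold higher in the EC (centred log2 ratio −0.68).

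The layer 6 factors were spread more widely still. *Foxp2*, a forkhead repressor of corticothalamic neurons that the striatum and the thalamus also make, lies on chromosome 6 (14851349 to 15391977, plus strand). It had the lowest mean normalized count of the 9 in both regions, 274 in the EC against 403 in the PVC, and the highest centred log2 ratio, 1.43 or 2.69-fold in favour of the PVC. *Tbr1*, a T-box protein that specifies early-born corticothalamic neurons, lies on chromosome 2 (61640987 to 61652171, plus strand). It had a mean normalized count of 4661 in the EC against 3869 in the PVC, a centred log2 ratio of 0.61. *Tle4*, a Groucho family corepressor of corticothalamic neurons without a DNA-binding domain of its own, lies on chromosome 19 (14522562 to 14672473, minus strand). It had a mean normalized count of 3541 in the EC against 1726 in the PVC. Its centred log2 ratio was −0.16, with 21.0% of the genes compared below it.

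The ratio of one layer factor to another within a region is free of the scale between the regions. Of the 36 pairs of the 9 genes, 15 had a ratio that differed at least 2-fold between the EC and the PVC, and the median pair differed 1.74-fold. Each of these 15 pairs includes *Bcl11b*, *Etv1* or *Tle4*. All 36 pairs are formed from the same 9 genes, so they are not separate observations. The share of all gene pairs past 2-fold was not computed. The largest contrast was between *Bcl11b* and *Foxp2*. Their ratio per kilobase was 37.4 in the EC against 7.29 in the PVC, a 5.14-fold difference. Such ratios per kilobase change with the length used, but their fold between the regions does not. *Bcl11b* exceeded *Rorb* 5.80-fold per kilobase in the EC against 1.32-fold in the PVC. The ratio of *Cux2* to *Bcl11b* was 0.82 in the EC against 2.89 in the PVC, and that of *Bcl11b* to *Fezf2* was 1.32 in the EC against 0.50 in the PVC. *Bcl11b* and *Etv1* kept a similar ratio to each other, 0.75 in the EC against 0.63 in the PVC, as did *Cux1* and *Cux2*, at 0.63 and 0.51. The order of the 2 genes was opposite in the 2 regions for 9 of the 36 pairs, and 7 of these were also opposite with the longest transcript as the length.

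Promoters are shown for *Rorb* and *Cux2*, the members with the highest PVC ratios among those matched, and for *Bcl11b* and *Etv1*, the members higher in the EC, so that the sequence before the start can be read beside the levels. RefSeq gave promoters for 8 of the 9 genes, 12 in all, as 4 genes have 2 annotated starts; *Foxp2* was not matched. The 250 bases before the start are given 5′ to 3′ on the strand of the gene, in the GRCm38.p6 build of the RefSeq table, which is not the build of the deposited counts. Capitals mark matches, on either strand, to the letters AGGTCA (nuclear receptor half-site), AGGTGTGA (T-box half-site), CCGGAAG (ETS site), TGTTTAC (forkhead site), ATCGAT (Cux core), CCAAT (the box of NF-Y), TATAAA (the box of TBP) or GGGCGG (the GC box of Sp1). Where a gene has 2 starts, the one with more matches is shown. The intervals are chr19:19111197-19111446 for *Rorb*, chr5:122047826-122048075 for *Cux2* and chr12:108003415-108003664 for *Bcl11b*, all on the minus strand, and chr12:38783461-38783710 on the plus strand for *Etv1*.
Rorb: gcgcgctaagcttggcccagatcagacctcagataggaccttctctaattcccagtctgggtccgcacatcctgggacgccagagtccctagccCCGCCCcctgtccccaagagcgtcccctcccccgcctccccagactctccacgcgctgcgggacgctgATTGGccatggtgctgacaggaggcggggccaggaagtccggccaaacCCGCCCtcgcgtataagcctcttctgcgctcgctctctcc
Cux2: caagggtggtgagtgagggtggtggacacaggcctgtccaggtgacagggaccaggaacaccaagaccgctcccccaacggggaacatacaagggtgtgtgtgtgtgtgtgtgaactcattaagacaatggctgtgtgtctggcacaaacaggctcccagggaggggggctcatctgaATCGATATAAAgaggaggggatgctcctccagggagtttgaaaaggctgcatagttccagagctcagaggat
Bcl11b: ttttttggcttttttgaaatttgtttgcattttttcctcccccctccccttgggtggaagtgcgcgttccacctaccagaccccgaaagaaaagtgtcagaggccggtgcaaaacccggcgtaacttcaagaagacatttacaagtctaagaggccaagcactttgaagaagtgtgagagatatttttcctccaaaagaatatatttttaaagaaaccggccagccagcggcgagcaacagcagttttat
Etv1: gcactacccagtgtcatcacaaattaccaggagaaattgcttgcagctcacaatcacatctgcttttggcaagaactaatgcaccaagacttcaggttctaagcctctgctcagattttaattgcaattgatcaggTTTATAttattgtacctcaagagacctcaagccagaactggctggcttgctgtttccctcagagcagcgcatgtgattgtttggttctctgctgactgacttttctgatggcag

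In these windows *Rorb* held 2 GC boxes and 1 CCAAT box and was 66.0% G or C with 18 CpG dinucleotides. *Cux2* held overlapping matches to the Cux core and the TATA box, *Etv1* held 1 TATA box on the opposite strand, and *Bcl11b* held none of the 8 motifs. The *Bcl11b* window was 44.8% and the *Etv1* window 44.4% G or C. The windows before the other starts of *Cux2*, *Rorb* and *Etv1* were 80.0%, 39.2% and 46.4% G or C. Over the 12 member windows the median G or C content was 58.2% and the median CpG count 11.5, against 52.4% and 6 over all 32851 promoters of the table. The Cux core was found in 0.728% of all promoters and in 1 of the 12, the forkhead site in 3.17% and in 1 (*Cux1*), and the GC box in 32.7% and in 5. The nuclear receptor half-site, present in 14.0% of all promoters, the T-box half-site, in 1.12%, and the ETS site, in 6.91%, matched 0 of the 12. The TATA box was found in 12.4% of all promoters and in 2 of the 12, and the CCAAT box in 33.8% and in 2. A match to these letters is a description of the sequence and not of a site in use, and the counts per gene do not tell which start was used.

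The layer factors were then set beside other markers of the same layers. Of 12 other markers of layers 2/3, 7 were at least 1.5-fold higher in the PVC and 2 in the EC, with a median centred log2 ratio of 0.77. *Pou3f2* (2.60-fold), *Lamp5* (listed as 6330527O06Rik, 2.46-fold) and *Stard8* (2.22-fold) were among those more than 2-fold higher in the PVC, while *Mdga1* (2.31-fold) and *Calb1* (1.61-fold) were higher in the EC. *Pou3f2* encodes an upper layer transcription factor, and the ratios of *Cux1* (0.60) and *Cux2* (0.89) lay on either side of this list's median. Of 8 other layer 4 markers, 5 were higher in the PVC and none in the EC by this limit, with a median of 1.30, next to 1.20 for *Rorb*. *Rspo1*, a secreted Wnt agonist, had a mean normalized count of 29.1 in the EC against 384 in the PVC, 23.4-fold higher after centring. The potassium channel genes *Kcnh5* and *Kcnab3* were 6.17 and 3.96-fold higher in the PVC, *Cyp39a1* was 3.07-fold higher, and *Unc5d* had a ratio of −0.55.

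Most markers of layers 5 and 6 stayed within 1.5-fold, while most of layer 6b were higher in the EC. Of 15 other layer 5 markers, 3 were at least 1.5-fold higher in the PVC (*Tox*, *Fam84b* and *Otx1*, 2.24, 2.19 and 2.09-fold) and 2 in the EC (*Htr2c* and *Crym*, 3.16 and 3.10-fold), with a median of 0.18. *Htr2c*, a serotonin receptor, and *Crym*, a thyroid hormone binding protein, were the only markers of this list with lower ratios than *Bcl11b* (−0.93) and *Etv1* (−0.68). Of 8 other layer 6 markers, 2 were higher in the PVC (*Syt6* and *Oprk1*, 2.10 and 1.82-fold) and 1 in the EC (*Car12*, 3.63-fold), with a median of 0.07. *Foxp2* (1.43) lay above all 8 and *Tle4* (−0.16) within their range. Of 5 markers of layer 6b, 4 were higher in the EC, *Moxd1* by 2.78, *Nxph4* by 2.26, *Ctgf* by 2.20 and *Drd1a* by 1.85-fold, and *Cplx3* had a ratio of 0.00. None of the 9 factors was grouped with layer 6b here.

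**Figure D3:**
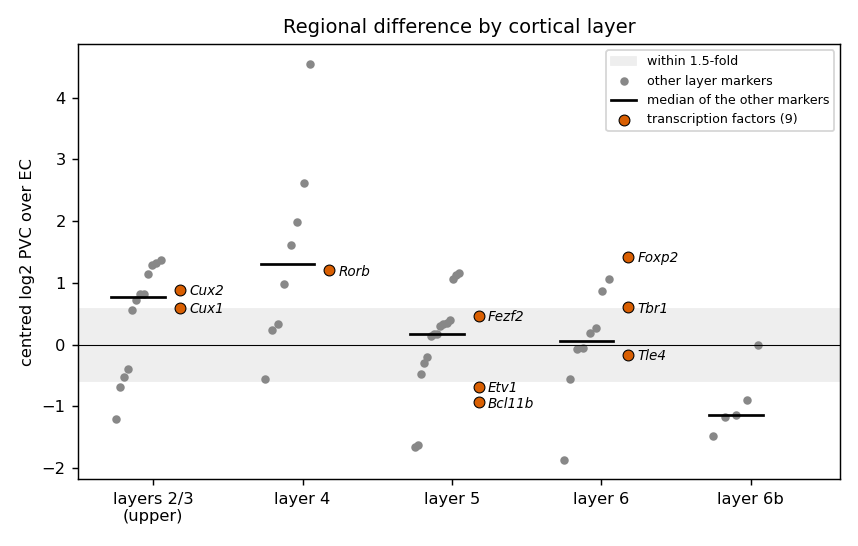
Centred log2 ratio of PVC over EC for other markers of each layer (grey, with their median as a bar) and for the 9 layer factors (orange), with the band of 1.5-fold shaded. The medians are 0.77 for layers 2/3, 1.30 for layer 4, 0.18 for layer 5, 0.07 for layer 6 and −1.14 for layer 6b, and *Bcl11b* and *Etv1* lie below all but 2 of the layer 5 markers.

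Paralogs of the 9 factors differed less between the regions. Of 16 paralogs, *Fezf1*, *Eomes* and *Tbx21* had mean normalized counts under 10 in both regions and were given no ratio. Of the other 13, 2 were at least 1.5-fold higher in the PVC and none in the EC, with a median of 0.09. *Foxp1*, which marks layers 3 to 5, was 1.96-fold higher in the PVC (mean normalized counts 3053 and 3270), in the direction of *Foxp2*, whereas *Foxp3* and *Foxp4* had ratios of 0.28 and −0.44. *Rora*, a related nuclear receptor, had a ratio of 0.33. *Bcl11a* had a ratio of 0.07, against −0.93 for *Bcl11b*. *Etv5*, an ETS gene at mean normalized counts of 5799 and 4565, had a ratio of 0.53 and *Etv4* of −0.07, where *Etv1* had −0.68. *Tle1*, *Tle2* and *Tle3* lay between 0.06 and 0.31 and *Aes* at −0.03, *Tle4* at −0.16, and *Tle6*, at counts of 118 and 153, was 2.37-fold higher in the PVC. How reads that match more than 1 paralog were handled cannot be seen from the counts per gene. Ratios within a family are therefore less certain than the counts alone would make them.

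**Figure D4:**
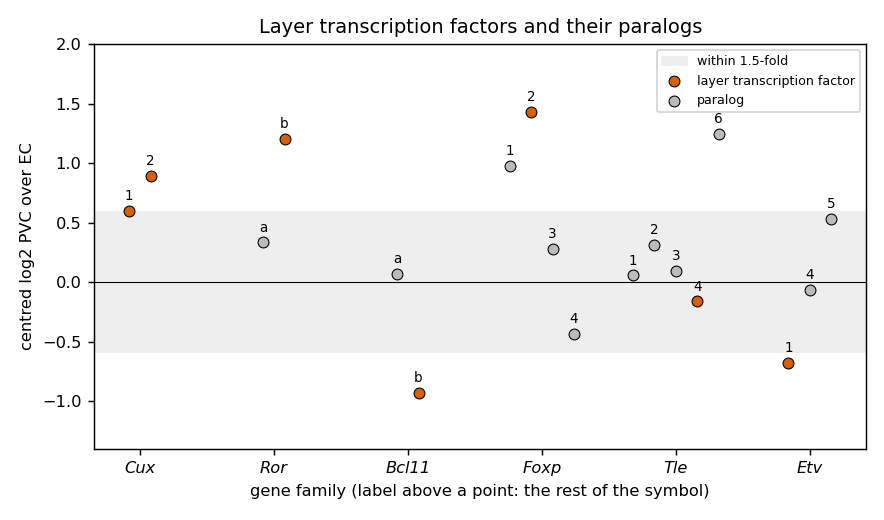
Centred log2 ratio of PVC over EC for the layer factors (orange) and their paralogs (grey) by gene family, with the band of 1.5-fold shaded. Within the Bcl11, Ror and Etv families the layer factor lies outside the band and the paralogs plotted lie inside it.

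Genes of 19 proteins that act with the layer factors, or against them, were compared next, and some are also in the layer lists. Of the 19, 15 stayed within 1.5-fold, where 91.7% of all genes compared did, while 3 were higher in the PVC and 1 in the EC. Their median was 0.05. Within 1.5-fold were *Hdac1*, *Hdac2*, *Mta2*, *Rbbp4* and *Chd4*, chromatin proteins of the NuRD complex that *Bcl11b* recruits (−0.18 to 0.14). *Cask*, a cofactor of *Tbr1* (0.12), was also within it. The upper layer POU factors *Pou3f2* and *Pou3f3* were 2.60 and 1.65-fold higher in the PVC. *Nr2f2*, a nuclear receptor of caudal and ventral cortex, was 4.62-fold higher in the EC, with counts of 2909 and 343. *Nr2f1*, its paralog, had a ratio of 0.36.

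The labelled tissues were then set beside markers. These lists were chosen with earlier results of these data known, so they are no independent check, and *Calb1* is also in the list of layers 2/3. All 5 entorhinal markers had a ratio below 0, and *Reln*, *Trps1*, *Wfs1* and *Calb1* were 3.38, 2.14, 2.07 and 1.61-fold higher in the EC. *Slc17a7*, *Camk2a*, *Neurod2* and *Neurod6* of excitatory neurons lay between −0.16 and 0.18, and the full list of 6 excitatory markers, which includes *Tbr1*, had a median of 0.14. All 6 oligodendrocyte markers were higher in the PVC, from 1.96-fold for *Cnp* through values that include *Mbp*, *Mog* and *Mag* to 3.05-fold for *Mobp* (median 2.68-fold, summed mean normalized count 45350 in the EC against 63075 in the PVC as deposited, a centred log2 ratio of the sums of 1.35). Of 4 markers of the subiculum, which adjoins the EC, 3 were higher in the EC, *Gpr101* by 13.9, *Nts* by 6.00 and *Fn1* by 1.89-fold (summed counts as deposited 9123 and 2471, centred log2 ratio −1.01). Of 7 hippocampal markers, 2 were higher in the EC, *C1ql2* by 3.45 and *Dsp* by 1.87-fold, and 1 in the PVC, *Pdzd2* by 1.80-fold, while *Prox1* of dentate granule cells had a ratio of 0.23 (summed counts as deposited 21716 and 11847, centred log2 ratio 0.00). Of 7 striatal markers, *Penk* and *Gpr6* were higher in the EC by 2.92 and 2.20-fold and the defining *Drd2* and *Adora2a* had counts of 97.2 and 72.4 in the EC against 48.2 and 51.5 in the PVC. Of 6 thalamic markers, *Tnnt1*, *Tcf7l2* and *Slc17a6* were higher in the PVC by 2.81, 1.88 and 1.58-fold. *Prkcd*, *Plekhg1* and *Calb2* stayed within 1.5-fold, with ratios of 0.28, 0.06 and −0.40 (summed counts of the 6 as deposited 4608 and 3039, centred log2 ratio 0.27). None of these markers was at 0 in either region. Several, including *Gpr101*, *Nts*, *C1ql2*, *Dsp*, *Gpr6* and *Tnnt1*, fell under the minimum of 100 counts of the genes compared, in the EC, the PVC or both. In the EC and PVC, *Nts* had counts of 205 and 17.7, *Dsp* of 35.7 and 9.69, and *Tnnt1* of 33.2 and 51.3. The part of these markers in the ratios of *Bcl11b*, *Etv1*, *Foxp2*, *Rorb* and the other layer factors was not tested.

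A scale set by 1 value for all genes moved the 9 ratios by the same amount. With the regions scaled on 4 excitatory neuron markers or on 6 pan-neuronal genes, *Foxp2*, *Rorb* and *Cux2* were still at least 1.5-fold higher in the PVC and *Bcl11b* and *Etv1* in the EC, whereas *Cux1* and *Tbr1* were inside the limit. *Cux1* was also inside it when the median was taken over genes with at least 1000 counts. The 6 pan-neuronal genes themselves ranged from −0.37 (*Stmn2*) to 0.79 (*Nefl*), with a median of 0.21. Over all the common scales tried, *Rorb* ranged from 2.00 to 2.36-fold and *Foxp2* from 2.33 to 2.76-fold. As deposited, with no common scale, 3 of the 9 genes (*Foxp2*, *Rorb* and *Cux2*) had a higher mean normalized count in the PVC and 6 in the EC, so the direction of *Cux1*, *Tbr1* and *Fezf2* rests on the common scale.

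**Figure D5:**
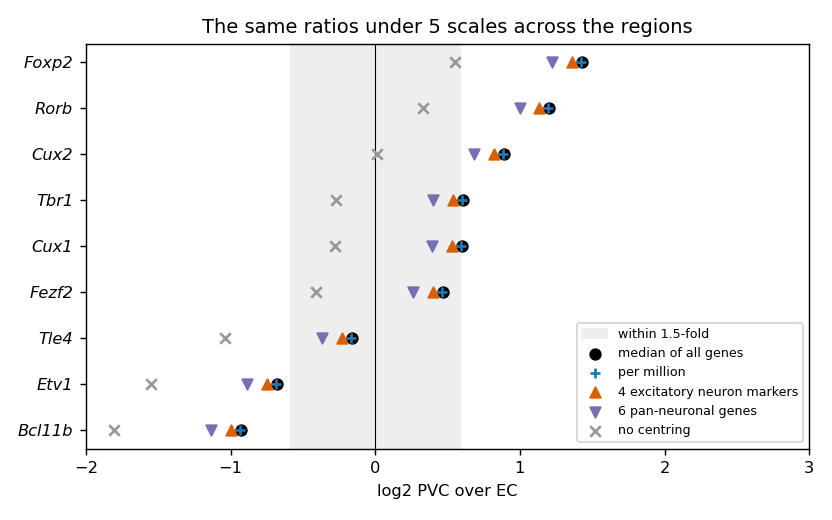
Log2 ratio of PVC over EC of the 9 genes under 5 ways to scale the regions to each other, with the band of 1.5-fold shaded. The order of the genes is the same under each scale; *Cux1*, *Tbr1* and *Fezf2* lie above 0 under the 4 common scales and below 0 with no centring.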

How the data were processed

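RNA-sequencing was performed on poly(A)+ RNA of the EC and PVC of 29 mice. Per the labels and the methods, the authors aligned reads to mm9 with TopHat2 2.0.6 and Bowtie2 2.0.2.0, counted them per gene with HTSeq and fitted DESeq2 1.10.1 within each region. The deposited signal used here is the authors' mean normalized count, in which library counts were scaled by size factors and averaged over a region; each region was normalized on its own. The other deposited columns hold the authors' comparison of *APOE3/4* with *APOE3/3* (fold changes, errors and p-values) and were not used, so genotype was not compared. By their descriptions, 7 of the 58 libraries were run multiple times, 2 from the EC and 5 from the PVC. Depth per library is unknown here, and counting intervals were not computed.

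Log2 ratios of PVC over EC (pseudocount 1) were centred on the median gene with at least 100 mean normalized counts in both regions, using Python 3.11.15, numpy 2.4.6, pandas 2.3.3 and matplotlib 3.10.9. A limit of 1.5-fold was used; no test was possible with 1 pooled value per region. The scaling was tested on simulated data in which most genes shared 1 shift, up to noise, by design. Such data cannot show whether the median gene is equal in the 2 tissues. Locations and exon lengths came from GENCODE M1 on NCBIM37, the build of the counts but a different annotation release, and older symbols were matched through RefSeq. The members and gene lists were chosen with earlier results of these data known. All members, the extreme genes of each list, its genes past 2-fold and all paralogs were to be named, genes under 10 counts in both regions being given no ratio. A few list genes are counted but not reported here by name. Genes of similar pattern were not sought, since 2 values per gene hold no pattern. Alternatives were other scales, minimum counts, pseudocounts, limits and transcript lengths.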

Additional observations from a re-analysis of the deposited data

How the results depend on the processing

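With no centring, the median log2 ratio of PVC over EC of the 9 genes turned from 0.60 to −0.28, 0 genes were at least 1.5-fold higher in the PVC, and *Cux1* (−0.28), *Tbr1* (−0.27) and *Fezf2* (−0.41) changed direction; this setting leaves in the log2 shift of −0.87 that the median gene shows between the separately normalized regions. Scaling on 4 excitatory neuron markers left 3 genes at least 1.5-fold higher in the PVC. Scaling on 6 pan-neuronal genes also left 3 and put the median at 0.39, a move of 0.21 shared by all genes. A limit of 2-fold left 2 genes higher in the PVC and 0 in the EC. The share of all genes past a limit was computed only for 1.5-fold with the main centring, so the counts under these other settings cannot be set against it. With the longest transcript as length, 5 of 9 genes kept their place by level per kilobase in the PVC. The other minimum counts, pseudocounts, a scale on the summed counts and a scale by transcript length, added after the data were seen, left both counts within 1.5 times and the median within 0.1. No paired analysis was possible because the deposited values are means over all libraries of a region; for the same reason no mouse could be left out in turn. The spread between mice and the depth behind each value are unknown.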

Other observations

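Among interneuron markers, 2 of 8 were at least 1.5-fold higher in the PVC, *Pvalb* by 3.20-fold (mean normalized counts 696 in the EC and 1216 in the PVC) and *Vip* by 1.71-fold, and *Sst* had a centred log2 ratio of −0.35. *Gad1* and *Gad2*, the enzymes of GABA synthesis, had ratios of 0.30 and 0.04. All 6 microglial markers lay between −0.17 (*Csf1r*) and 0.02 (*C1qa*) and all 5 endothelial markers between −0.06 (*Cldn5*) and 0.13 (*Ly6c1*). Of 6 astrocyte markers, *Gfap* was 1.55-fold higher in the EC and the other 5 stayed within 1.5-fold, from −0.56 for *Aqp4* to 0.33 for *Aldh1l1*, with a median of −0.25 over the 6. *Ttr*, a choroid plexus gene, was 4.45-fold higher in the PVC and *Kcnj13* 2.71-fold higher in the EC, with *Kl* at −0.03 and *Clic6* at 0.00.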
